A study of Homo sapiens with 8 samples.

Results

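The nuclear effectors of the Hippo pathway, its DNA-binding partners and a set of their known target genes were examined in ZR-75-1 breast cancer cells in which EI24 was knocked down. The 10 genes were taken by symbol: YAP1, WWTR1, TEAD1, TEAD4, CCN1, CCN2, ANKRD1, AMOTL2, LATS2 and AJUBA. CCN1 and CCN2 carry the older names CYR61 and CTGF. All 10 were found among the 18417 genes measured, each on 1 transcript cluster, the group of probes that reads 1 gene. ZR-75-1 is an established luminal, estrogen receptor-positive line. Expression was read for 4 lines with duplicate Affymetrix arrays, 8 in total. The ZR-shEI24 lines were 2 independent clones with a stable short hairpin RNA against EI24, referred to as clone 1 and clone 2. The shGFP line carried a hairpin against GFP as the control, and the parental cells carried no hairpin. The methods give a serum-containing medium for ZR-75-1 cells and name no compound added for the arrays. Whether the hairpin lines were kept under a selection drug is not stated there. A difference between single clones and a control line can also come from the clone itself, and the sources do not say whether duplicate arrays were hybridized from separate cultures. The p-values therefore measure the spread between arrays, and the number of arrays limits their precision.

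The Hippo pathway is a kinase cascade that restrains the transcriptional coactivators YAP, encoded by YAP1, and TAZ, encoded by WWTR1. When the LATS kinases phosphorylate them, YAP and TAZ are held in the cytoplasm or degraded. When they are not phosphorylated, they enter the nucleus and bind TEAD factors at enhancers and promoters, often next to AP-1 factors. In breast epithelium YAP and TAZ are known for their link to cell contact, matrix stiffness and mesenchymal traits. An array reads mRNA only, so it holds no measure of their phosphorylation or place in the cell.

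The promoters of ANKRD1 and CCN2 are shown because several copies of the TEAD motif lie in them. The motif searched was GGAATG, read on both strands, so that CATTCC is the same motif on the opposite strand. Capitals mark it, and in ANKRD1 they also mark a match to the AP-1 motif TGANTCA, which overlapped neither TEAD match. Each sequence is the 250 bases before the first base of the gene in RefSeq (GRCh38.p14), printed 5′ to 3′ on the gene's own minus strand. CCN2 lies at chr6:131951373-131951622 and ANKRD1 at chr10:90921088-90921337.
CCN2: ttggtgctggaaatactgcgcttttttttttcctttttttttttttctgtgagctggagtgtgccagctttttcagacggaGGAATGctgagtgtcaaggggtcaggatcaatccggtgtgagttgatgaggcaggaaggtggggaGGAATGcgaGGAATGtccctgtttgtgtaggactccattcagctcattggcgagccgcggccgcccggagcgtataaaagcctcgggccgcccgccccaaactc
ANKRD1: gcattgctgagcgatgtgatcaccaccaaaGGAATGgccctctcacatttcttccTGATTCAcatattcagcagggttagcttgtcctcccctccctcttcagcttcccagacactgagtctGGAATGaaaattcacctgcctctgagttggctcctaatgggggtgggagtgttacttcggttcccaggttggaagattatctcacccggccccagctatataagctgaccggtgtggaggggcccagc
The CCN2 matches began 169, 104 and 95 bases before the gene, and those of ANKRD1 began 220 and 128 bases before it. The AP-1 match of ANKRD1 began 195 bases before the gene. Of all 35116 RefSeq windows of 300 bases, running from 250 before to 50 after a start, 14% held the TEAD motif, 1.37% held at least 2 copies and 0.128% held at least 3. The AP-1 motif was in 7.71% of them.

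Promoter windows were matched for 7 of the genes, 10 windows in all, since WWTR1, AMOTL2 and AJUBA have 2 each. The TEAD motif was in 6 of the 10 windows, 1 each for 6 genes. The 30 bases around the single matches are shown so that their flanks can be compared. YAP1 is at chr11:102110273-102110302 on the plus strand. On the minus strand are AMOTL2 at chr3:134374499-134374528, LATS2 at chr13:21061560-21061589 and AJUBA at chr14:22976884-22976913.
YAP1: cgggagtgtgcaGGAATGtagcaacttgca
AMOTL2: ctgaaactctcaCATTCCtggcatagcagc
LATS2: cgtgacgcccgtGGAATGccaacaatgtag
AJUBA: gggaagttggctGGAATGaagccaaagcaa
The match began 162 bases before the annotated start in YAP1 and 9 bases past it in LATS2. In AMOTL2 and AJUBA it was in the window of a second annotated start, which lies 970 bases (AMOTL2) and 5709 bases (AJUBA) downstream of the first, and it began 69 and 59 bases before that second start. Their first windows held no match. AMOTL2 was the 1 gene of the 6 with the motif on the opposite strand. Neither WWTR1 window held these letters, and ANKRD1 had the 1 AP-1 match among the 10 windows. CCN1, TEAD1 and TEAD4 had no entry. A match is a string of letters in a window and was not tested as a binding site.

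**Figure D1:**
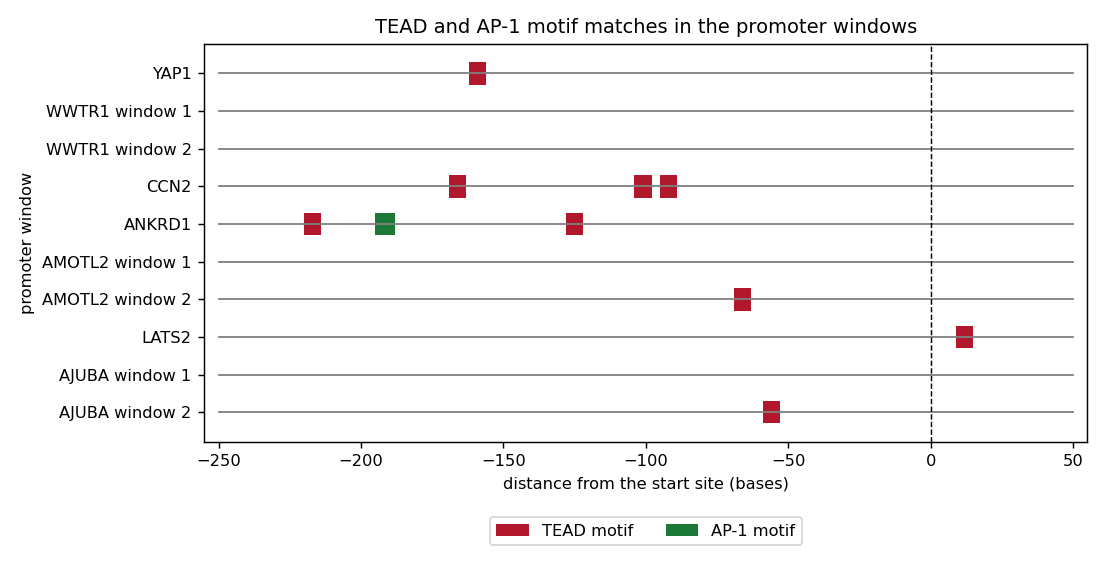
Positions of the TEAD motif (red) and the AP-1 motif (green) in the 10 promoter windows of 7 genes. The horizontal axis is the distance from the annotated start of that window, in bases, where window 2 is that of a second start downstream of the first, and each row is 1 window. CCN2 holds 3 TEAD matches and ANKRD1 holds 2 beside its AP-1 match.

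EI24, the gene the hairpin targets, was measured first. Its log2 intensity was 8.64 and 8.43 in clone 1, 9.25 and 9.19 in clone 2, 11.97 and 11.91 in shGFP cells, and 12.08 and 12.09 in parental cells, so the clones lay below every control array. Array medians ran between 7.28 and 7.39. In ZR-shEI24 cells all 9 luminal markers were lower than in shGFP cells and all 7 mesenchymal-like markers were higher, where 29% of all genes were lower and 26.8% higher (limma, adjusted p under 0.05). Of the 7, SPARC was higher by only 0.24 and was not called in either clone alone (adjusted p = 0.0684 and 0.0573 from limma). The mean log2 intensity of the luminal list was 8.42 to 8.78 on the ZR-shEI24 arrays, against 12.01 to 12.07 on the control arrays, and that of the mesenchymal-like list was 10.99 to 11.17 against 6.46 to 6.68. GATA3 had 7.25 to 7.57 in ZR-shEI24 and 12.21 to 12.45 in control arrays. ESR1, the estrogen receptor, was 1 of 3 luminal markers among the dimmest 25% of all genes in both clones. The luminal label of the line thus describes the controls, while in the clones all 9 markers were lower, by -6.11 (CDH1) to -1.38 (KRT18) against shGFP. The mean of the 9 in the clones stayed above the array medians, though below that in the controls. VIM had 13.13 to 13.29 in ZR-shEI24 against 6.87 to 7.35 in control arrays. Over both clones none of the 7 fibroblast markers passed the test by limma, 1 of them at an unadjusted p and 1 by the methods' unpaired test, and 4 were among the dimmest 25% in the clones. In clone 2 alone FAP was higher, by 0.34 (adjusted p = 0.0262 from limma). Of the other markers, 2 of 3 leukocyte and 1 of 3 endothelial ones were higher, at mean levels of 6.02 to 6.21 against 5.56 to 5.78 and of 6.16 to 6.42 against 5.87 to 6.08. In clone 1 alone 1 leukocyte and 1 endothelial marker were higher, against 23% of all genes. In clone 2 alone the counts were 2 and 0, against 25.2%. These shifts of identity markers accompany each difference below, and their part in it was not tested.

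Against shGFP cells, 9 of the 10 genes were higher in ZR-shEI24 cells and none was lower, while 26.8% of all genes were called higher and 29% lower (limma, Benjamini-Hochberg adjusted p under 0.05 over all genes). Unadjusted p-values under 0.05 called none lower either, in limma or in the methods' test. The median log2 fold change of the 10 was 1.27, against 0.08 over all genes. At least 2-fold higher were 8 of them, compared with 8.69% of all genes. In the same 9 genes all 4 ZR-shEI24 arrays lay above all 4 control arrays, a pattern found in 23.8% of all genes. The exception in the counts of 9 was TEAD4. Against parental cells 9 were again higher and 1, TEAD4, was lower, with 25.1% of all genes higher and 30.8% lower. The arrays read a mean over all cells, so more mRNA in each cell and more cells with the mRNA cannot be told apart.

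Among the effectors, YAP1 had a log2 intensity of 11.24 and 11.21 in clone 1, 11.44 and 11.41 in clone 2, 10.21 and 10.27 in shGFP cells, and 10.36 and 10.23 in parental cells. Both clones were above both controls, with no overlap, and YAP1 was 2.12-fold higher than in shGFP (log2 fold change 1.09, standard error 0.08, adjusted p = 2.75e-06 from limma). WWTR1, which encodes the YAP paralog TAZ, had 10.00 and 9.87 in clone 1, 9.51 and 9.45 in clone 2, 7.94 and 7.88 in shGFP cells, and 8.36 and 8.26 in parental cells. Its 4 lines kept apart from each other, with clone 1 the highest and shGFP the lowest. The rise against shGFP was 3.47-fold (log2 fold change 1.80, standard error 0.08, adjusted p = 1.34e-07 from limma), the largest among the 4 effectors and TEAD factors. Against parental cells it was 1.40 on the log2 scale.

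The TEAD factors bind the DNA for YAP and TAZ, and those measured here did not move alike. TEAD1 had a log2 intensity of 11.35 and 11.11 in clone 1, 11.23 and 11.20 in clone 2, 9.88 and 9.84 in shGFP cells, and 9.94 and 10.00 in parental cells. The clones and the controls formed separate ranges, and TEAD1 rose 2.57-fold (log2 fold change 1.36, standard error 0.09, adjusted p = 1.45e-06 from limma). TEAD4 had 8.96 and 8.99 in clone 1, 8.891 and 9.001 in clone 2, 8.95 and 8.88 in shGFP cells, and 9.28 and 9.22 in parental cells. Here the clones overlapped the shGFP arrays and lay under the parental ones. The TEAD4 difference from shGFP was 0.04 on the log2 scale, with a 95% interval of -0.13 to 0.22 (adjusted p = 0.632 from limma). Against parental cells it was -0.29 (adjusted p = 0.00952 from limma), so the call for TEAD4 depended on the control.

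The secreted matrix proteins CCN1 and CCN2 and the ankyrin repeat protein ANKRD1 are widely used readouts of YAP and TAZ activity, and they held the largest differences. ANKRD1 had a log2 intensity of 12.41 and 12.18 in clone 1, 12.42 and 12.43 in clone 2, 6.54 and 6.32 in shGFP cells, and 6.31 and 6.22 in parental cells. The lowest ZR-shEI24 array exceeded the highest control array by 5.64. ANKRD1 was 61.0-fold higher than in shGFP (log2 fold change 5.93, standard error 0.10, adjusted p = 8.84e-10 from limma). Its parental level was among the dimmest 25% of all genes, at percentile 22.5, and its shGFP level lay just above them, at 25.2. Background compresses differences at such levels.

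CCN1 had a log2 intensity of 12.69 and 12.60 in clone 1, 12.98 and 12.89 in clone 2, 8.21 and 8.36 in shGFP cells, and 8.19 and 7.91 in parental cells. The gap between the clones and the controls was 4.23 at its narrowest, and the rise against shGFP was 22.6-fold (log2 fold change 4.50, standard error 0.10, adjusted p = 2.95e-09 from limma). CCN2 had 12.06 and 11.97 in clone 1, 11.57 and 11.49 in clone 2, 7.08 and 7.44 in shGFP cells, and 7.24 and 7.62 in parental cells. Its duplicates were the most uneven of the 10 genes in both control lines, by 0.36 in shGFP and 0.38 in parental cells, yet the gap to the clones was 3.87 at its narrowest. CCN2 rose 22.8-fold against shGFP (log2 fold change 4.51, standard error 0.13, adjusted p = 1.23e-08 from limma).

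**Figure D2:**
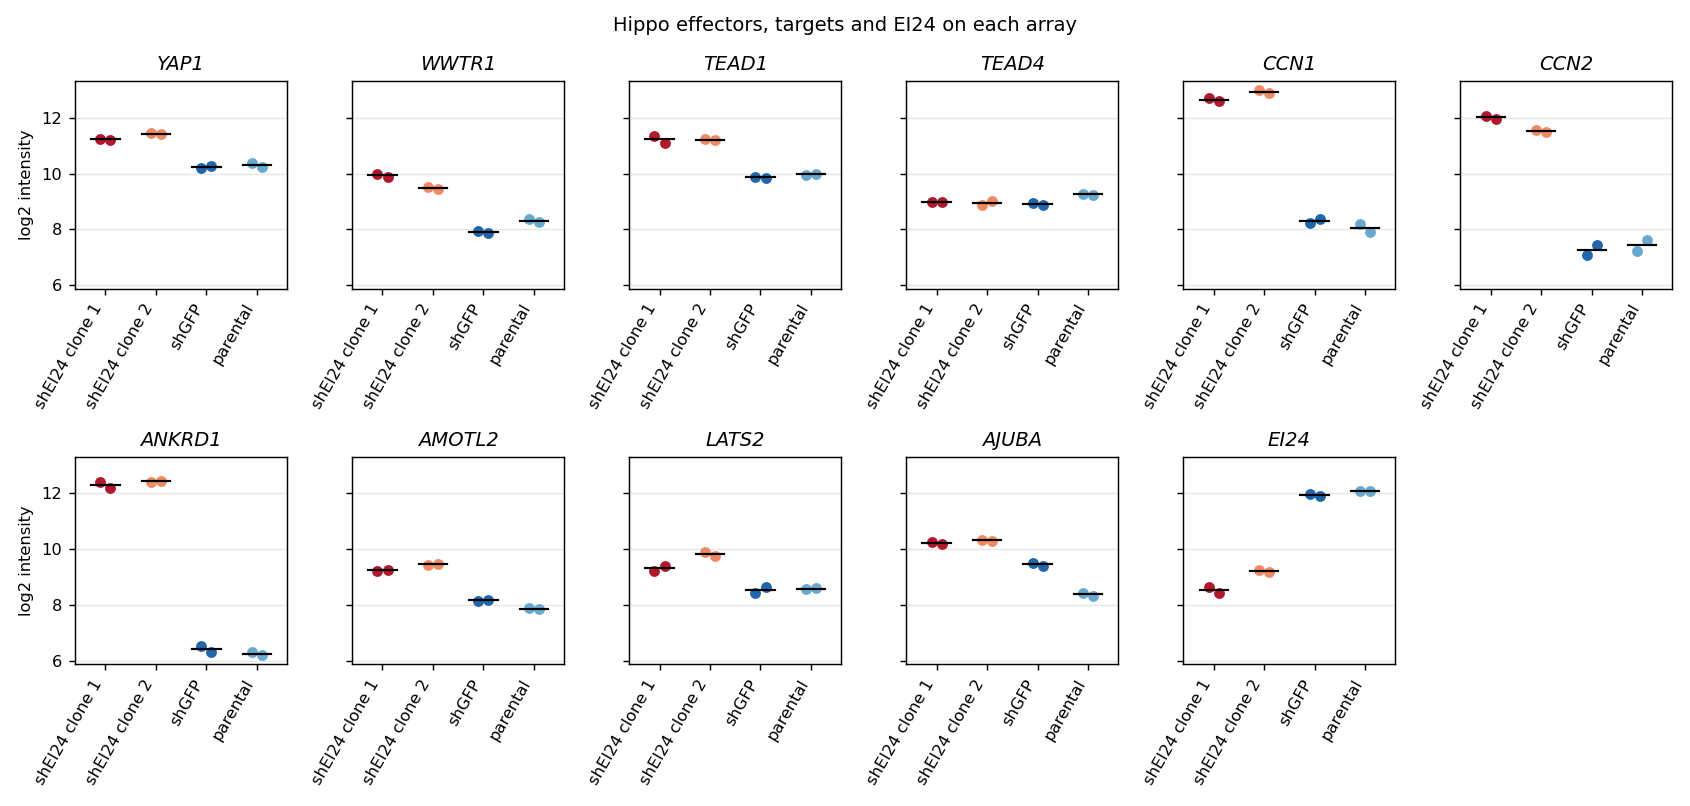
Log2 intensity of the 10 Hippo genes and of EI24 by line, from the 2 shEI24 clones to shGFP and parental cells. Each dot is 1 array and each bar the mean of a line. ANKRD1 lies between 12.18 and 12.43 in the clones and between 6.22 and 6.54 in the controls, whereas TEAD4 in the clones overlaps shGFP.

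The remaining 3 genes encode proteins that act on the pathway itself. AMOTL2, an angiomotin family member that binds YAP, had a log2 intensity of 9.22 and 9.26 in clone 1, 9.45 and 9.48 in clone 2, 8.16 and 8.19 in shGFP cells, and 7.89 and 7.85 in parental cells. Every ZR-shEI24 array was above every control array, and AMOTL2 was 2.26-fold higher than in shGFP (log2 fold change 1.18, standard error 0.07, adjusted p = 1.0e-06 from limma). LATS2, a kinase that phosphorylates YAP and TAZ and is itself one of their targets, had 9.24 and 9.39 in clone 1, 9.91 and 9.76 in clone 2, 8.44 and 8.64 in shGFP cells, and 8.56 and 8.62 in parental cells. Clone 2 was the highest line, clone 1 lay between it and the controls, and LATS2 rose 2.05-fold (log2 fold change 1.03, standard error 0.09, adjusted p = 1.37e-05 from limma). AJUBA, a LIM protein that inhibits the LATS kinases, had 10.27 and 10.19 in clone 1, 10.33 and 10.31 in clone 2, 9.51 and 9.40 in shGFP cells, and 8.45 and 8.34 in parental cells. The clones were alike, and the 2 control lines stood apart. The AJUBA rise was 0.82 on the log2 scale against shGFP (standard error 0.08, adjusted p = 1.98e-05 from limma) and 1.88 against parental cells (adjusted p = 1.09e-07 from limma), or 1.76-fold and 3.68-fold.

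Each clone was then set against shGFP alone. The same number, 9 of 10, was called higher in clone 1, where 23% of all genes were, and 9 of 10 in clone 2, where 25.2% were. TEAD4 was the gene not called in either, with log2 differences of 0.06 in clone 1 and 0.03 in clone 2 (adjusted p = 0.592 and 0.796 from limma). YAP1 was higher than in shGFP by 0.99 in clone 1 and by 1.19 in clone 2, and TEAD1 by 1.37 in clone 1 and by 1.35 in clone 2. The 3 targets with the largest rise differed from shGFP by 5.86 (ANKRD1), 4.35 (CCN1) and 4.75 (CCN2) in clone 1, and by 5.998 (ANKRD1), 4.65 (CCN1) and 4.27 (CCN2) in clone 2. At a threshold of 2-fold on the change itself (limma's treat) 5 genes were called higher over both clones, namely WWTR1, TEAD1, CCN1, CCN2 and ANKRD1, against 6.12% of all genes. It called 5 in clone 1, against 6.05% of all genes, and 6 in clone 2, against 5.88%.

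**Figure D3:**
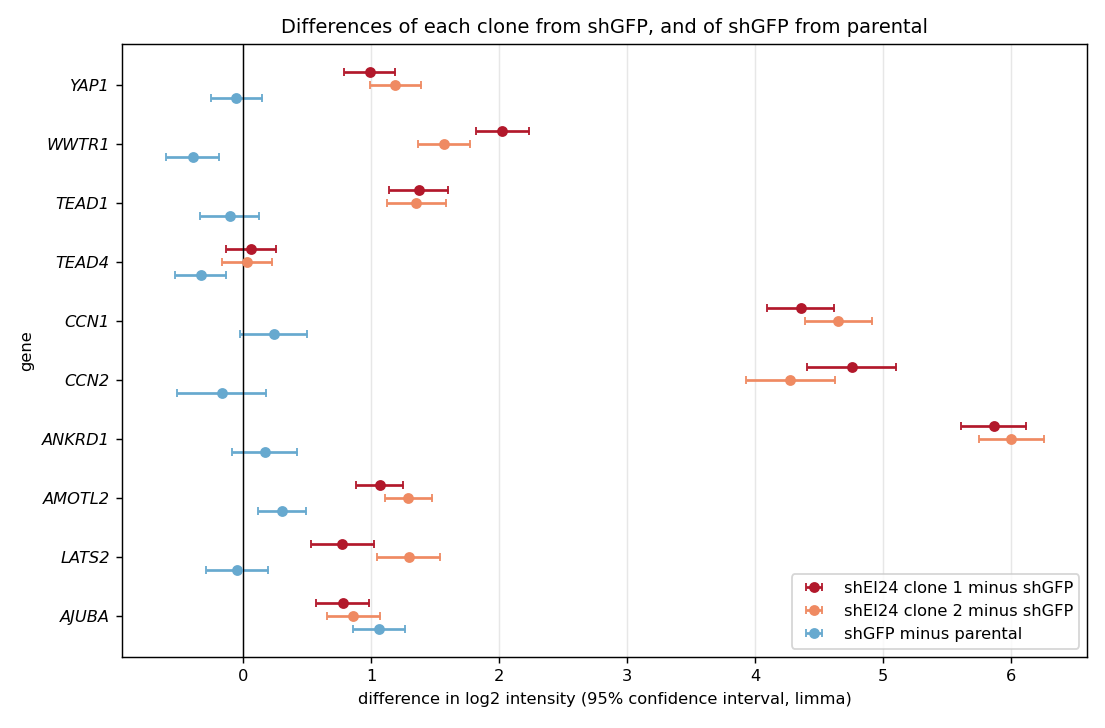
Differences in log2 intensity of shEI24 clone 1 and clone 2 from shGFP, and of shGFP from parental cells, for the 10 Hippo genes. Points are limma estimates and bars their 95% confidence intervals. TEAD4 stays at 0.06 and 0.03 in the clones, and AJUBA differs by 1.06 between shGFP and parental cells.

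Between the clones, 2 of the 10 genes differed, 1 in each direction, against 15.2% of all genes in either direction (9.29% higher and 5.88% lower in clone 1). WWTR1 in clone 1 exceeded its clone 2 level by 0.46 (standard error 0.09, adjusted p = 0.0106 from limma). LATS2 was lower in clone 1, with a difference of -0.52 (standard error 0.11, adjusted p = 0.0128 from limma). EI24 also was lower in clone 1, by -0.68 (adjusted p = 0.00227 from limma). CCN2 differed by 0.48 with a 95% interval of 0.14 to 0.83 and was not called (adjusted p = 0.0696 from limma), although its size lay between those of LATS2 and WWTR1. The other 7 genes differed by -0.29 to 0.03, with no call. Under other models some of these were called: CCN2 and AMOTL2 with the replicate number as a block (adjusted p = 0.0429 and 0.0498 from limma), and CCN2, CCN1 and YAP1 with a trend and robust estimation of the variance together (0.0102, 0.0256 and 0.0367). The WWTR1 call was lost without clone 1 replicate 1 (adjusted p = 0.0545 from limma) or clone 2 replicate 2 (0.0591), and that of LATS2 without clone 1 replicate 1 (0.0689) or clone 2 replicate 1 (0.0776), over ranges of 0.0184 to 0.0591 and 0.0216 to 0.0776 when single arrays were left out.

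The 2 control lines were compared to see how far lines without the EI24 hairpin differed. Of the 10 genes, 4 differed between shGFP and parental cells, against 10.7% of all genes (3.21% higher and 7.44% lower in shGFP). AJUBA was 2.09-fold higher in shGFP cells (log2 difference 1.06, standard error 0.09, adjusted p = 0.000401 from limma), and this call held without any single array. AMOTL2 was higher in shGFP by 0.30 (adjusted p = 0.0487 from limma). WWTR1 and TEAD4 were lower in shGFP, with differences of -0.40 (adjusted p = 0.0262 from limma) and -0.33 (adjusted p = 0.0436 from limma). YAP1, TEAD1, CCN1, CCN2, ANKRD1 and LATS2 differed by -0.17 to 0.24 and were not called. Without any 1 of the shGFP or parental arrays the WWTR1 call was lost (adjusted p = 0.0742 to 0.213 from limma). AMOTL2 and TEAD4 lost theirs in those cases and also without either clone 2 array (adjusted p = 0.0682 to 0.299 and 0.0527 to 0.297 from limma).

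The order of the 4 lines followed from these tests. For CCN1, CCN2, ANKRD1, YAP1 and TEAD1 the clones came first and the controls after them, and neither the 2 clones nor the 2 controls differed from each other at an adjusted p under 0.05 (limma), which does not show that they were alike. The duplicates of CCN2 in clone 1, for example, both lay above those in clone 2. AMOTL2 and AJUBA had the same split, with shGFP above parental cells. For LATS2 clone 2 preceded clone 1, with no call between parental and shGFP cells. WWTR1 was the 1 gene with a call between every pair of neighbors, in the order clone 1, clone 2, parental and shGFP. TEAD4 was highest in parental cells, and clone 1, clone 2 and shGFP followed with no call among neighbors.

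Other published targets of YAP and TAZ moved in the direction of CCN1 and CCN2. Of 17 genes from a target signature of cancers, which leaves out the genes above, 15 were higher in ZR-shEI24 than in shGFP cells and none was lower, against 26.8% of all genes higher and 29% lower (limma; also none at an unadjusted p by limma or by the methods' test). Their median log2 fold change was 1.84, against 0.08 over all genes. NT5E, which makes extracellular adenosine, differed by 6.26, F3, the tissue factor of coagulation, by 5.24, the receptor kinase AXL by 4.69 and the secreted protein CCDC80 by 4.54. The 2 genes not called were MYOF at 0.14 and ARHGEF17 at -0.03. In each clone alone 15 of the 17 were higher, against 23% of all genes in clone 1 and 25.2% in clone 2. Between the clones 6 were higher and 2 lower in clone 1, against 9.29% and 5.88% of all genes. NT5E and CCDC80 were higher in clone 1, by 0.59 and 0.78. The 2 lower in clone 1 were GADD45A, at -1.01, and NUAK2, at -0.46. Between the controls 3 were higher and 2 lower in shGFP cells, against 3.21% and 7.44%, among them F3 at -0.63.

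The regulators upstream of LATS2 and YAP1 held calls in both directions. Of 23 measured, 11 were higher in ZR-shEI24 than in shGFP cells, 5 lower and 7 not called, against 26.8% of all genes higher and 29% lower (limma), and their median log2 fold change was 0.23. FRMD6, a FERM domain protein, was higher by 2.88, the atypical cadherin FAT4 by 2.44, the kinase MAP4K4 by 2.07 and PTPN14, a phosphatase that binds YAP and is also in the target signature, by 1.84. The 5 lower genes were AMOT, the founding angiomotin, at -1.09, STK3, which encodes the kinase MST2, at -0.99, NF2, which encodes merlin, at -0.98, TAOK2 at -0.82 and AMOTL1 at -0.29. The angiomotin family thus differed in direction, with AMOTL2 higher and AMOT lower against both controls. AMOTL1 was lower against shGFP alone, and against parental cells it differed by 0.03 (adjusted p = 0.741 from limma). The MST kinases also differed in direction, since STK4, which encodes MST1, was higher by 1.10. LATS1, the paralog of LATS2, differed by -0.22 and was not called (adjusted p = 0.0962 from limma). Of the 23 regulators, 3 were higher and 3 lower in clone 1 than in clone 2, against 9.29% and 5.88% of all genes. STK3 was 1 of the lower ones, differing from shGFP by -1.38 in clone 1 and -0.60 in clone 2.

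The other TEAD factors and the VGLL proteins, which bind TEADs in place of YAP and TAZ, gave 2 higher, 2 lower and 2 genes not called of 6, counts near the 26.8% of all genes higher and 29% lower (limma), with a median log2 fold change of 0.10. VGLL3 was higher by 1.25. TEAD3 was higher by 0.26 against shGFP, but clone 1 alone gave no call (0.12, adjusted p = 0.258 from limma), nor did parental cells as the control (0.07, adjusted p = 0.44 from limma). TEAD2 was lower, at -1.18, and so was VGLL4, a TEAD-bound repressor, at -0.81. The VGLL4 difference was -0.40 in clone 1 and -1.23 in clone 2, and the clones differed (adjusted p = 0.000434 from limma). Of the 4 TEAD genes, TEAD1 was thus higher and TEAD2 lower against either control, while the calls for TEAD3 and TEAD4 depended on the control.

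Among 9 AP-1 factors, 7 were higher in ZR-shEI24 than in shGFP cells, 1 lower and 1 not called, against 26.8% of all genes higher and 29% lower (limma), with a median log2 fold change of 0.54. By the methods' unpaired test at an unadjusted p under 0.05, 4 were higher and 1 lower, with no share of all genes counted. In 4 of the 9 all ZR-shEI24 arrays lay above all control arrays, a pattern found in 23.8% of all genes. In clone 1 alone 4 of the 9 were higher and 4 were not called, against 23% of all genes higher. In clone 2 alone 7 were higher, against 25.2% of all genes. FOSL1 was higher by 2.47 (standard error 0.27, adjusted p = 5.05e-05 from limma), FOSL2 by 1.78, BATF3 by 1.38 and JUN by 1.37, whereas FOS was lower, at -0.93. Clone 1 was below clone 2 in FOSL1 (-1.23), ATF3 (-1.09) and JUNB (-0.69), with adjusted p = 0.0304, 0.00283 and 0.00143 from limma. JUN and FOS also differed between the controls, by 0.91 and -0.78 in shGFP against parental cells (adjusted p = 0.00375 and 0.0106 from limma).

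Genes with the most similar profile over the 8 arrays were listed for the 3 most changed targets. The likeness is Pearson's r, given as a description, since the 8 arrays are 4 lines and any gene that separates clones from controls scores high. ANKRD1 was closest to SMURF2 and MSN (r = 0.9998 and 0.9996) and to GNG12 (0.9996). CCN1 was closest to STK4 (r = 0.9997), SMURF2 (0.9994) and TIMP1 (0.9989). CCN2 was closest to WLS (r = 0.9997), CAVIN3 (0.9993) and IGF2BP3 (0.9989).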

How the data were processed

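Total RNA of 4 ZR-75-1 lines was measured on 8 arrays. The array is called human exon 1.0 st in the methods, while its identifiers match those of the annotated Human Gene 1.0 ST array. The authors deposited log2 intensities for 33297 transcript clusters. GCOS and RMA stand in the submitters' processing notes, with no version given in the sources used here. RMA removes background, equalizes the distributions of the arrays and summarizes probes, which compresses differences near background. Clusters with 1 gene symbol were kept, 19460 in all, and the one with the highest mean over the arrays for each gene, which left 18417 genes. The first number in the shEI24 labels was taken as the clone.

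Differences came from limma 3.58.1 in R 4.3.3 (lmFit, eBayes) with a mean per line and 4 residual degrees of freedom, adjusted over all genes by Benjamini-Hochberg. ZR-shEI24 is the mean of both clones. The procedure was tested on simulated data. The methods' unpaired test, another control, other normalizations and variance models, and leaving out arrays were alternatives. The members and lists were chosen with earlier results of these data known. Named from each list were up to 4 genes with the largest change and up to 2 called against the list's median. STK4, NF2, TAOK2, AMOTL1, LATS1, ATF3, JUNB, MYOF, ARHGEF17, SPARC, CDH1, KRT18, FAP, GADD45A and NUAK2 were added after their values were seen. Promoters are from RefSeq. Proteins were not analysed here.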

Additional observations from a re-analysis of the deposited data

Results flagged for a closer look

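The clones differed from each other in 2 of the Hippo genes and in EI24, by a test of the difference itself, and 2 of 10 is near the 15.2% of all genes that differed. WWTR1 was 0.46 higher in clone 1 than in clone 2 on the log2 scale (adjusted p = 0.0106 from limma). LATS2 differed by -0.52 (adjusted p = 0.0128 from limma), clone 1 being the lower. EI24 differed by -0.68 (adjusted p = 0.00227 from limma), so clone 1, with less EI24 mRNA, had more WWTR1 and less LATS2 than clone 2. The calls for WWTR1 and LATS2 were each lost without 1 of 2 single arrays (adjusted p = 0.0545 and 0.0591 for WWTR1, 0.0689 and 0.0776 for LATS2, from limma). By the methods' unpaired test none of the 3 was called (Benjamini-Hochberg adjusted p = 0.232 for WWTR1, 0.292 for LATS2 and 0.242 for EI24). With 2 clones no relation between these values can be tested.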

How the results depend on the processing

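The 9 calls among the Hippo genes in ZR-shEI24 against shGFP held when single arrays were left out and under every alternative but the 2-fold threshold, which called 5 in both clones together, 5 in clone 1 and 6 in clone 2. In clone 1 alone the methods' test also lost LATS2 (adjusted p = 0.0725, Benjamini-Hochberg). Their direction did not change under any. The number of genes called against shGFP was 10289, but 6166 when lines served as replicates, against both controls pooled, and 2067 at the 2-fold threshold. For clone 1 against shGFP it was 9144, but 1908 at that threshold and 4913 by the methods' unpaired test, and for clone 2 it was 9769, 2098 and 5954. Between the clones it was 2794, 44 and 4, with a range of 1744 to 2473 without single arrays, and among the members 2, 0 and 0, with a range of 0 to 2. A variance model with a trend and robust estimation together gave 5 members. Between shGFP and parental cells it was 1962, 26 and 11, with 3117 under that variance model and a range of 394 to 2219 without single arrays, while 4, 0 and 0 members were called, with a range of 1 to 4. The causes were not tested.

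With the replicate number as a block, 12050 genes were called against shGFP, 4179 between the clones and 3436 between shGFP and parental cells. The block added CCN2 and AMOTL2 to the members called between the clones, 4 in all. It changed no other call among the members. Deviations of equal number correlated between lines by 0.25 to 0.59, and 2 numbers cannot show a pairing.

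Differences that changed sign had no call as reported. TEAD4 against shGFP became -0.29 against parental cells, -0.12 with pooled controls, also when lines served as replicates, and -0.00031 after centring on the median. In clone 2 it became -0.014 after centring and ran between -0.026 and 0.084 without single arrays. Between the clones TEAD1 became -0.020 and TEAD4 -0.0085 after a second quantile normalization, and without single arrays TEAD1 ran between -0.10 and 0.14 and TEAD4 between -0.023 and 0.087. Between shGFP and parental cells LATS2 became 0.019 and YAP1 0.0034 after that normalization, and without single arrays CCN2 ran between -0.36 and 0.020, LATS2 between -0.15 and 0.047 and YAP1 between -0.12 and 0.014. The TEAD4 call between shGFP and parental cells was also lost after it (adjusted p = 0.0933 from limma) and after centring (0.0656).

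Precision rests on 2 arrays a line. Low intensities compress differences, and of the members ANKRD1 in parental cells was among the dimmest 25%. The shGFP level of ANKRD1 lay just above them, at percentile 25.2.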

Other observations

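The genes next to each Hippo gene on its chromosome were listed, 5 measured ones on each side in the order of GRCh38.p14, and were chosen after earlier results were known. For comparison, 26.8% of all genes were called higher and 29% lower in ZR-shEI24 than in shGFP cells (limma). Around TEAD1, 9 of 10 neighbors were higher and none lower, with a median log2 fold change of 0.37, and these included PARVA at 4.11 and MICAL2 at 3.69. Around LATS2, which was itself higher, 8 of 10 neighbors were lower and 1 higher, with a median of -0.64. Around YAP1, 6 were higher and 1 lower. The lower one was PGR, the progesterone receptor, at -4.21, while BIRC2, an inhibitor of apoptosis often amplified together with YAP1 in cancers, was higher by 1.75. CCN1 had 6 higher and 1 lower neighbors and CCN2 6 higher and none lower, among them ENPP1 at 3.39. WWTR1 had 1 higher and 4 lower, the higher one being TM4SF1 at 4.54. ANKRD1 had 4 higher and 2 lower, TEAD4 4 and 3, AJUBA 2 and 4, and AMOTL2 1 and 2. These counts are descriptions, and neighboring genes are not independent of one another.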
